A study of Mus musculus with 15 samples.

Results

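The response to cerulein of the pancreas of betacellulin transgenic mice was measured on 7 of the 15 arrays of the series, 4 from transgenic animals given cerulein and 3 from transgenic animals given saline. The arrays were chosen by their labels alone. The series title names betacellulin, the sample labels call these animals transgenic without naming the construct, and the promoter that drives it is not given in the sources used here. All animals, in every group, were male C57BL/6J mice (age not given) that fasted for 18 h. Each received 1 intraperitoneal injection, of 50 µg cerulein per kg of body weight in saline or of saline alone, and was killed 3 h later, although the saline animals carry a time label of 0 h. The other 8 arrays come from wild type mice, 4 given cerulein and 4 given saline, and serve here only for comparison. Labels number each animal separately, 1 array per animal. The transgenic saline animals are 2, 3 and 4 and the transgenic cerulein animals are 13, 14, 15 and 16, and values per animal are given below in that order. The series text states 4 animals per group, of which 3 transgenic saline arrays were analysed here.

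Cerulein is an analogue of cholecystokinin, the gut hormone that makes acinar cells discharge their digestive enzymes, and an excessive dose elicits acute pancreatitis in rodents. In an overstimulated acinar cell calcium signalling, blocked secretion and stress of the endoplasmic reticulum (ER) are followed by transcription of immediate early genes and of inflammatory mediators. Betacellulin is a ligand of the receptors EGFR and ERBB4, which act through the ERK kinases among others. The deposited RNA is from whole pancreas, so that fewer cells of a type and less RNA per cell cannot be told apart.

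Levels are given as the log2 spot signal minus the 75th percentile of the same array, and a difference is the cerulein mean minus the saline mean on that scale with its standard error from limma. A gene was called raised or lowered at a Benjamini-Hochberg adjusted p below 0.05 over all 17338 genes tested. The share of probes clearly over background ranged from 60.1% to 74.7% over the 7 arrays. The mean was 68.1% ± 4.70 (SD, n = 4) after cerulein and 63.5% ± 4.2 (SD, n = 3) after saline, a difference of 4.61 percentage points (exact two-sided permutation test, p = 0.257, smallest possible 0.0571). The arrays lay on 3 slides. Slide 1 held saline animal 2 and cerulein animals 13 and 14, slide 3 held saline animals 3 and 4 and cerulein animal 15, and slide 2 held cerulein animal 16 and no saline animal. Results are therefore also given with slide as a block, or within slides 1 and 3, where that matters. The tissue matched its label: the 24 measured digestive enzymes and secretory products averaged 9.5 to 11 on the 7 arrays, far above the 75th percentile. Markers of intestinal epithelium were uneven. Of 6 measured, 1 was called raised, Vil1, which encodes the microvillus protein villin (2.23 ± 0.50 (SE, adjusted p = 0.011), not called without saline animal 3 or 4), and with array weights 5 were raised. Their mean over 6 genes was 1.7 in saline animal 2 and 1.4 in cerulein animal 14 and lay between -2.3 and -0.9 in the other 5 animals, and their part in the results was not tested.

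Cerulein raised and lowered many genes of the transgenic pancreas, and the largest changes were rises. A total of 829 genes were raised (4.78% of the genes tested) and 592 were lowered (3.41%). Which direction held more genes depended on the setting, with more lowered than raised genes for array weights (3166 raised and 4548 lowered) and without cerulein animal 15 (635 and 703), and at an unadjusted p below 0.05 1687 genes were higher and 2094 lower. Of the raised genes 745 rose at least 2-fold, 249 at least 4-fold, 82 at least 8-fold and 37 at least 16-fold. Of the lowered genes 454 fell at least 2-fold, 66 at least 4-fold, 8 at least 8-fold and 1 at least 16-fold. The median difference was 1.57 over the raised genes, -1.24 over the lowered genes and -0.06 over all genes. With slide as a block 2637 genes were raised (15.2%) and 1447 lowered (8.35%), among them 829 of the 829 and 587 of the 592. Differences within slide 1 and within slide 3 both had the sign of the call for 828 of the 829 raised genes and for all 592 lowered genes. These genes were called on the same arrays, so that the shared sign was largely fixed by that choice and is no separate test. Single saline animals bore on the counts. Without saline animal 3 the counts were 509 raised and 186 lowered, and without saline animal 4 they were 547 and 202. Fewer genes were also lowered without cerulein animal 14 (290) or 16 (361).

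**Figure D1:**
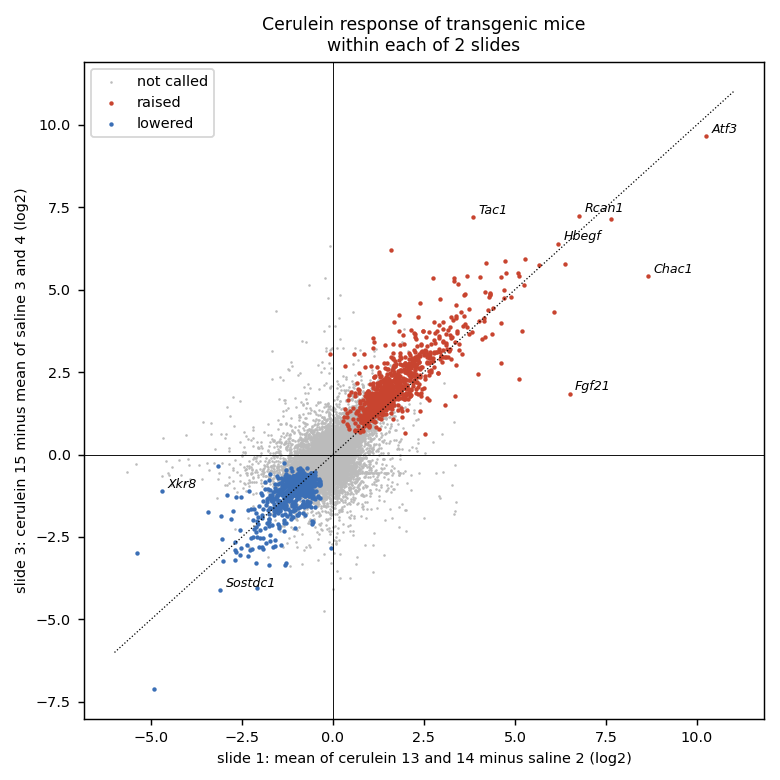
Difference after cerulein (log2) of each of 17338 genes within slide 1 (x axis, mean of cerulein animals 13 and 14 minus saline animal 2) and within slide 3 (y axis, cerulein animal 15 minus the mean of saline animals 3 and 4). Red points are the 829 genes called raised and blue points the 592 called lowered over all arrays, and the dotted line marks equal values. The called genes share a sign on both axes, save 1 raised gene, but were chosen on these same arrays.

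The groups did not overlap for most called genes. Every cerulein animal stood above every saline animal in 822 of the 829 raised genes and below in 583 of the 592 lowered genes, while over all genes tested 1725 (9.95%) were higher without overlap and 2015 (11.6%) were lower. Among the raised genes, 43 were not well above background in any saline animal, and 21 lowered genes were not above it in any cerulein animal, so that their fold can only be bounded.

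Among the largest rises were transcription factors, a calcineurin inhibitor and enzymes of lipid and protein turnover. Atf3, a stress-induced factor of the ATF family, stood at -4.24, -3.45 and -3.35 in the saline animals and at 5.97, 6.06, 6.24 and 6.00 in the cerulein animals. It was near background in saline (well above it in 2 of 3 animals) and close to the same high level in all 4 cerulein animals, a difference of 9.75 ± 0.31 (SE, adjusted p = 1.9e-10). Rcan1, which encodes an inhibitor of the calcium-dependent phosphatase calcineurin, went from -1.26, -0.95 and -0.73 to 5.45, 5.54, 6.39 and 5.90, a 112-fold rise of 6.80 ± 0.42 (SE, adjusted p = 4.1e-07). Other rises of this size included Kel, the Kell blood group endopeptidase (7.10 ± 0.49), Sgms2, a sphingomyelin synthase (5.39 ± 0.33), Lonrf3, a ring finger protein (5.11 ± 0.43, other probe 1.55), Csrnp1, a nuclear protein of the immediate early class (4.95 ± 0.34), and Tnfrsf12a, the receptor of the cytokine TWEAK (4.94 ± 0.33). For each of these 5 genes every cerulein animal was above every saline animal, which was a condition for naming the largest rises. Tdrd5, a Tudor domain protein known from the germ line, was above background in 1 of 3 saline animals and in all 4 cerulein animals, with levels of -5.18, -6.07 and -2.57 and -1.01, 0.89, 1.10 and 0.53.

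Genes that fell most were fewer and of mixed function. Sostdc1 (sclerostin domain containing 1), an extracellular inhibitor of BMP and Wnt signals, fell from 3.28, 3.58 and 3.66 to 0.87, -0.49, -0.49 and -0.40, a difference of -3.63 ± 0.42 (SE, adjusted p = 9.5e-05). Cerulein animal 13 kept the highest level of the 4 and still lay below every saline animal. N4bp2l1 differed by -3.05 ± 0.46 (adjusted p = 8.2e-04), and Acvr1c, a type I receptor of the TGF-beta family also called ALK7, by -2.91 ± 0.40 (SE, adjusted p = 4.1e-04), with a second probe at -3.16. Plk2, a polo-like kinase, had levels of 0.10, 0.64 and 1.41 in saline and -2.98, -2.18, -1.63 and -1.83 in cerulein animals and fell by 2.87 ± 0.37 (SE, adjusted p = 2.1e-04). Plk3, of the same kinase family, rose by 3.38 ± 0.35 (SE, adjusted p = 4.2e-05). Rnase2b, a ribonuclease chosen after its values were seen, was above background in all 3 saline but in 1 of 4 cerulein animals, so that its fitted difference (-5.94 ± 1.54 (SE, adjusted p = 0.027)) rests on signals near background, and its groups overlapped, since cerulein animal 13 stood at -0.38, above saline animal 4 at -0.53. That call was lost without any 1 of saline animals 2 or 3 or cerulein animals 14, 15 or 16 (adjusted p up to 0.113).

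**Figure D2:**
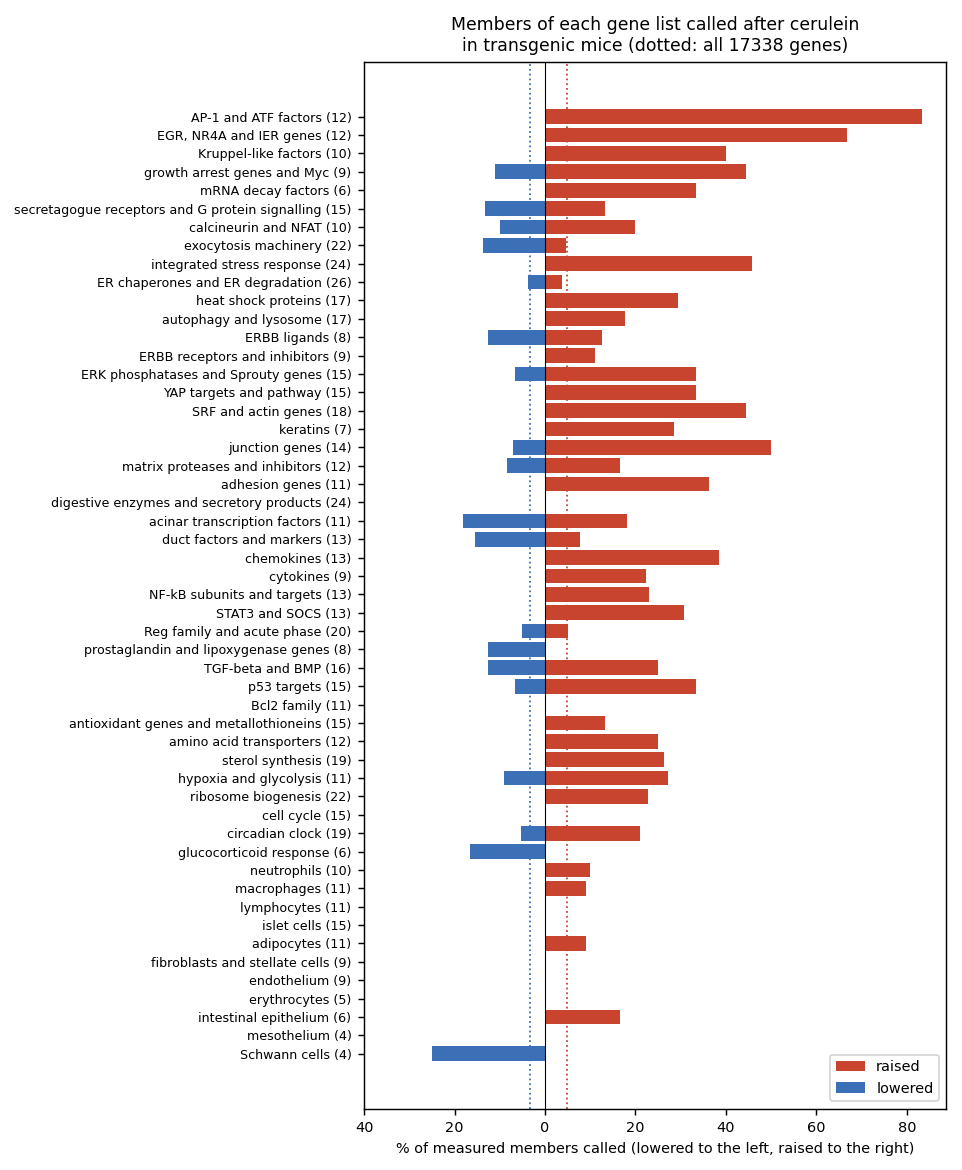
Share of the measured members of each gene list (number in brackets) that were called raised (red, to the right) or lowered (blue, to the left) after cerulein in transgenic mice. Dotted lines mark the shares over all 17338 genes tested, 4.78% raised and 3.41% lowered; AP-1 and ATF factors reach 83.3% raised, while no digestive enzyme was called.

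Transcription factors that respond within minutes to hours of a stimulus formed the densest group of raised genes. Of 12 measured AP-1 and ATF factors 10 were raised and none lowered (median 2.44), and of 12 EGR, NR4A and IER genes 8 were raised and none lowered (median 2.50). Without saline animal 3, 8 of the AP-1 and ATF factors were raised, and with slide as a block 1 was lowered. The EGR, NR4A and IER genes had 6 raised without any 1 of cerulein animals 14, 15 or 16 or saline animals 3 or 4. Jun, a core AP-1 subunit, had levels of 1.92, 2.23 and 1.09 after saline and 4.72, 5.86, 5.78 and 5.21 after cerulein (3.65 ± 0.49 (SE, adjusted p = 3.1e-04)). Fos, its partner, went from -3.39, -5.60 and -2.64 to -0.64, 0.52, 1.24 and -0.06, with wide spread in both groups and 2 of 3 saline animals above background (4.14 ± 0.80 (SE, adjusted p = 0.0049)). Maff, a small Maf protein, rose by 2.85 ± 0.40 (SE, adjusted p = 4.9e-04). The groups did not overlap in these 3 genes.

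Among the other immediate early genes Ier2 rose by 2.94 ± 0.32 (adjusted p = 6.9e-05), Ier3 by 2.79 ± 0.30 (adjusted p = 6.4e-05) and the nuclear receptor Nr4a2 by 2.90 ± 0.46 (adjusted p = 0.0011, other probe 1.91). Egr1, a zinc finger factor chosen after its values were seen, had levels of 0.46, 1.55 and 1.74 and 2.62, 3.81, 4.58 and 3.77. Its rise of 2.44 ± 0.66 (SE, adjusted p = 0.033) was not called without any 1 of 6 animals, all save cerulein animal 13, where the adjusted p reached 0.125. Of 10 Kruppel-like factors 4 were raised. Klf6 rose most of the 4, from 2.18, 2.33 and 2.13 to 6.55, 6.16, 7.15 and 6.05, a 19.2-fold difference of 4.27 ± 0.37 (SE, adjusted p = 7.0e-06). Klf5 and Klf7 rose by 2.12 and 2.33 (adjusted p = 4.9e-04 and 4.4e-04).

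Genes that restrain growth and messenger RNA stability moved in both directions. Of 9 growth arrest genes and Myc, 4 were raised and 1 lowered. Gadd45a, induced by DNA damage and stress, had levels of -2.33, -1.71 and -2.04 after saline and 2.74, 2.74, 3.64 and 2.89 after cerulein (5.03 ± 0.36 (SE, adjusted p = 1.4e-06)). Btg2, an antiproliferative cofactor of deadenylation, rose by 3.89 ± 0.34 (SE, adjusted p = 7.0e-06). Its relative Tob1 went the other way, from 3.77, 4.15 and 3.80 to 2.14, 1.18, 1.64 and 0.55, and fell by 2.53 ± 0.35 (SE, adjusted p = 4.2e-04). Of 6 mRNA decay factors 2 were raised, and these were Zfp36 (tristetraprolin, which destabilises cytokine transcripts; 4.01 ± 0.51 (SE, adjusted p = 2.3e-04)) and Zc3h12a (the endoribonuclease Regnase-1; 2.98 ± 0.40 (SE, adjusted p = 3.5e-04)).

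Among the receptors and the machinery through which secretagogues act, a few genes moved in each direction. Of 15 genes of secretagogue receptors and G protein signalling, 2 were raised and 2 lowered, but 1 was raised without cerulein animal 13, 14 or 15 or saline animal 3 or 4, and 1 lowered without cerulein animal 14 or 16 or any 1 saline animal. Cckar, the receptor that cerulein itself binds, had levels of 5.63, 5.77 and 5.58 in saline and 4.78, 3.54, 4.47 and 3.33 in cerulein animals, so that every cerulein animal lay below every saline animal. Its difference was -1.63 ± 0.41 (SE, adjusted p = 0.023), and the call was lost without any 1 of saline animals 2, 3 or 4 or cerulein animals 14 or 16 (adjusted p up to 0.0989). Grpr, the receptor of gastrin-releasing peptide, fell from -0.30, 0.26 and 0.17 to -1.18, -3.57, -3.83 and -4.38, with cerulein animal 13 nearest to saline (-3.29 ± 0.59 (SE, adjusted p = 0.0029)). Tac1, which encodes the peptide substance P, was above background in 1 of 3 saline animals and in all cerulein animals. Its levels were -3.92, -6.13 and -6.38 and -1.81, 1.68, 0.94 and 1.34, again with animal 13 nearest to saline (6.01 ± 1.07 (SE, adjusted p = 0.0026)).

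Of 10 calcineurin and NFAT genes, with 6 of the 10 differences below 0 and a median of -0.29, 2 were raised, Rcan1 and its relative Rcan3 (1.31 ± 0.25 (SE, adjusted p = 0.0051)), and 1 was lowered (none without cerulein animal 14 or saline animal 3 or 4). Among 22 genes of the exocytosis machinery 1 was raised and 3 were lowered, with 18 of the 22 differences below 0 and a median of -0.32. Rab3a, a GTPase of secretory vesicles, went from 1.69, 2.19 and 2.66 to -0.70, -1.01, -0.40 and -1.36, a fall by 3.04 ± 0.33 (SE, adjusted p = 5.9e-05). Stx3, a syntaxin of the apical membrane, rose from 0.60, 0.55 and 0.46 to 2.86, 3.22, 3.65 and 2.41 (2.50 ± 0.27 (SE, adjusted p = 6.7e-05), other probe 2.40). Without saline animal 3, 1 gene of this list was lowered.

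Many genes of the integrated stress response rose, whereas ER chaperones were called about as often as all genes tested. In this response a shortage of amino acids or unfolded protein in the ER leads to phosphorylation of the initiation factor eIF2 and translation of ATF4, which with C/EBP partners turns on genes of amino acid supply and of cell death. Of 24 measured genes of the list 11 were raised and none lowered (median 1.49, against -0.06 over all genes), and 19 with slide as a block (median 1.98). Atf4 itself, named with Ddit3 after their values were seen, had levels of 5.73, 6.78 and 6.99 after saline and 8.47, 8.77, 9.35 and 8.28 after cerulein (2.22 ± 0.39 (SE, adjusted p = 0.0026)). Ddit3, which encodes CHOP, rose by 2.20 ± 0.38 (SE, adjusted p = 0.0021). Cebpb, which encodes a C/EBP factor and was counted in this list, rose from 1.58, 2.18 and 2.23 to 4.86, 4.84, 5.76 and 4.76 (3.06 ± 0.35 (SE, adjusted p = 9.3e-05)).

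Target genes of the response rose as well, and saline animal 2 had the lowest level of all 7 animals in each of the next 5. Chac1, an enzyme that degrades glutathione, stood at 0.55, 3.65 and 4.37 in saline and at 9.09, 9.31, 9.41 and 8.69 in cerulein animals (6.26 ± 0.70 (SE, adjusted p = 8.6e-05)). Its difference was 8.64 within slide 1 and 5.40 within slide 3, since saline animal 2 was lower than the other two while the cerulein animals were close together. Trib3, a pseudokinase that restrains ATF4 and AKT, went from -0.19, 1.13 and 1.97 to 5.88, 6.49, 7.32 and 6.37 (5.55 ± 0.51 (SE, adjusted p = 1.1e-05)). Gdf15, a stress hormone of the TGF-beta family, had levels of -2.68, -0.66 and 0.42 and 3.90, 2.89, 4.20 and 2.98 (4.46 ± 0.59 (SE, adjusted p = 2.8e-04)). These 3 genes did not overlap between the groups.

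Fgf21, an endocrine growth factor of the pancreas and liver, varied most among the saline animals, from -1.39, 1.89 and 2.68 to 5.79, 4.43, 4.12 and 4.37 after cerulein. The difference was 3.62 ± 0.73 (SE, adjusted p = 0.0064) overall and 6.50 within slide 1 and 1.84 within slide 3. Slc7a11, the cystine transporter, was above background in 1 of 3 saline animals and in all cerulein animals, at -6.02, -5.52 and -2.66 and -1.24, -0.43, -0.36 and -0.42 (4.12 ± 0.69 (SE, adjusted p = 0.0018)). Among 12 amino acid transporters 3 were raised, and 7 with slide as a block, but only 1 without any 1 of saline animals 2 or 3 or cerulein animals 14, 15 or 16. Slc7a3, a carrier of cationic amino acids, held its call in each of these (2.36 ± 0.47 (SE, adjusted p = 0.0055)).

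The promoters of Atf3, Chac1 and Slc7a11 are shown because the genes rose together and each holds the C/EBP-ATF element, the composite site at which C/EBP and ATF proteins pair. Each sequence is the 250 bases before the transcription start from RefSeq (GRCm38.p6), 5′ to 3′ on the strand of the gene, with the element in capitals. The element was searched as TGATGNAA on both strands.
Atf3, chr1:191183334-191183583 (- strand): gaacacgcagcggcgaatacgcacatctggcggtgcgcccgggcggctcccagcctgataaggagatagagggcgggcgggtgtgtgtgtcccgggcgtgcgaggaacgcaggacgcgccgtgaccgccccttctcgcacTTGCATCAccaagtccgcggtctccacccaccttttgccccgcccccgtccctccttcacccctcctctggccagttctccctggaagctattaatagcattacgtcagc
Chac1, chr2:119350992-119351241 (+ strand): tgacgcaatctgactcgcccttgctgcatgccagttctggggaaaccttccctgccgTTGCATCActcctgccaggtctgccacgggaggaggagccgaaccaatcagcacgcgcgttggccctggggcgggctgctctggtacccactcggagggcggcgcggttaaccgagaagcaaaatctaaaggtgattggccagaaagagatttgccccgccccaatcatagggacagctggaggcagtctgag
Slc7a11, chr3:50443614-50443863 (- strand): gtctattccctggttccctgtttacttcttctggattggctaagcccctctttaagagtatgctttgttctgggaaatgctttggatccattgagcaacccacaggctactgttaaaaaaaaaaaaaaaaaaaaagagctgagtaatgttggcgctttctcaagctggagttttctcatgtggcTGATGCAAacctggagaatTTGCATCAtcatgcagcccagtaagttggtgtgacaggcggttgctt
The match begins 110 bases before the start in Atf3, 193 in Chac1 and 66 and 47 in Slc7a11, and overlaps no match to the other motifs searched. Of the 17338 genes tested 13758 had a RefSeq promoter, with 17091 promoter windows from 250 bases before to 50 after the start. The element was found in 2.85% of all these windows, in 4.30% of the 837 windows of raised genes, in 6.25% of the 256 windows of genes raised at least 4-fold and in 0.890% of the 562 windows of lowered genes. Within the integrated stress response list 6 of 23 windows (26.1%) held it, and so did 4 of 19 (21.1%) of the digestive enzymes and secretory products, of which none was called raised. Of the other listed genes with the element, some were raised and some were not called, also within the integrated stress response. A match describes these letters and is no evidence of binding.

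ER chaperones and the genes of ER-associated degradation were called about as often as all genes tested. Of 26 measured members 1 was raised and 1 lowered, 21 of the 26 differences were below 0 and the median was -0.47 (-0.13 with slide as a block, where 4 were raised and 5 lowered). Without saline animal 2, 5 were lowered, and with array weights 18, while 7 were lower at an unadjusted p below 0.05. Hspa5 (BiP), the main chaperone of the ER lumen, chosen after its values were seen, had levels of 6.59, 7.20 and 7.50 in saline and 7.53, 7.86, 8.47 and 7.09 in cerulein animals, which overlap. Its difference was 0.64 ± 0.35 (SE, adjusted p = 0.32), and 1.03 with slide as a block (adjusted p = 0.0017). Ern1, which encodes the ER stress sensor IRE1, rose by 1.73 ± 0.31 (SE, adjusted p = 0.0028). Sel1l, the adaptor of the ubiquitin ligase that clears misfolded protein from the ER, fell from 5.00, 5.27 and 5.48 to 4.33, 3.19, 3.73 and 2.65 (-1.78 ± 0.33 (SE, adjusted p = 0.004)).

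Several heat shock proteins of the cytosol rose. These chaperones refold damaged protein outside the ER. Of 17 measured, 5 were raised and none lowered (median 1.06), and 14 were raised with slide as a block (median 1.51). Hspa4l, of the HSP110 family, had levels of -1.60, -1.46 and -1.18 and 2.36, 3.09, 3.58 and 2.68, tight in saline and without overlap (4.34 ± 0.40 (SE, adjusted p = 1.1e-05)). Hspb1, a small heat shock protein that protects actin filaments, went from 4.66, 4.23 and 4.22 to 7.16, 6.96, 7.20 and 6.11 (2.49 ± 0.43 (SE, adjusted p = 0.0023)). Hsp90aa1, the inducible HSP90, rose by 1.97 ± 0.41 (adjusted p = 0.0071) and the cochaperone Bag3 by 1.74 ± 0.35 (adjusted p = 0.0064).

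Hspa1a, the inducible HSP70, differed most among animals. It stood at -2.49, -3.47 and -3.42 in saline animals and at -1.69, 3.38, 1.82 and 1.43 in cerulein animals, so that animal 13 lay about 3 log2 units or more below the other 3 and still above every saline animal. The rise of 4.36 ± 1.00 (SE, adjusted p = 0.014) was not called without saline animal 3 or saline animal 4 (adjusted p up to 0.0661).

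**Figure D3:**
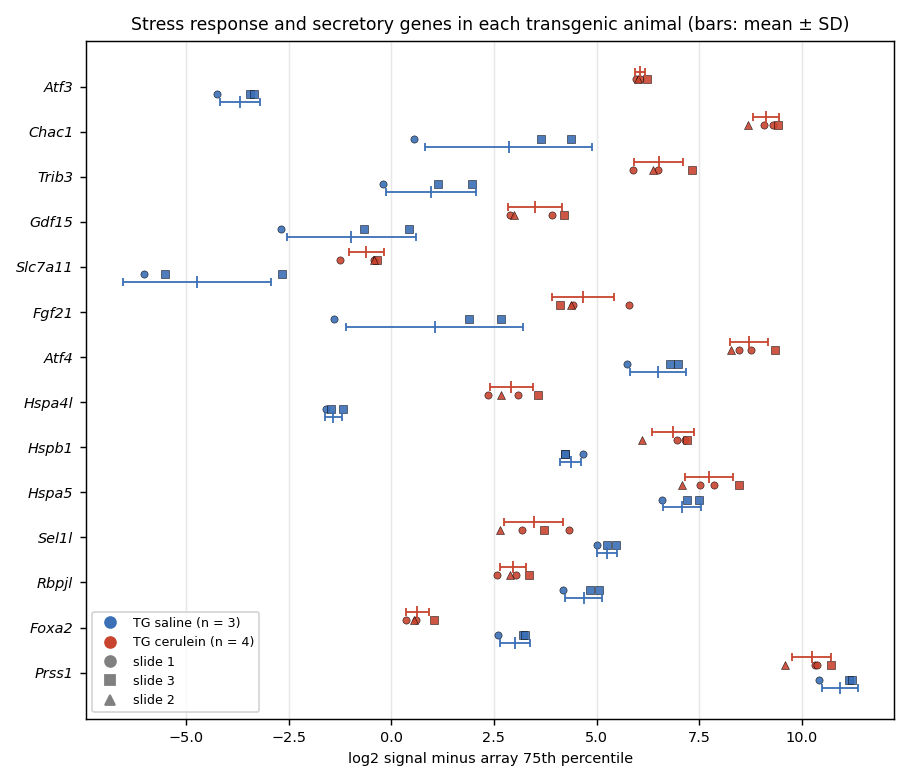
Level (log2 signal minus the 75th percentile of the array) of 14 genes of the stress response and of secretion in each transgenic animal, saline in blue (n = 3) and cerulein in red (n = 4), with the mean and SD as bars. Marker shapes give the slide; Atf3 rises from between -4.24 and -3.35 to between 5.97 and 6.24, and Hspa5 and Prss1 overlap between the groups.

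Of the ERBB system the ligand Hbegf and the receptor Egfr rose, and betacellulin itself did not pass the test. Of 8 measured ligands 1 was raised and 1 lowered, and of 9 receptors and their inhibitors 1 was raised (2 ligands were raised without cerulein animal 13). Hbegf, the heparin-binding ligand of EGFR and ERBB4, had levels of -1.96, -1.93 and -1.50 in saline and 4.32, 4.12, 4.68 and 3.50 in cerulein animals, a 62-fold difference of 5.95 ± 0.33 (SE, adjusted p = 1.7e-07). Tgfa, a ligand of EGFR alone, fell by 1.10 ± 0.19 (SE, adjusted p = 0.0023), with levels of -3.33, -2.94 and -2.79 and -4.05, -4.24, -4.10 and -4.08. Btc was low on these arrays, at -3.73, -4.29 and -3.56 after saline and -3.30, -2.24, -1.80 and -2.17 after cerulein, above background in 2 of 3 and 4 of 4 animals. Cerulein animal 13 was the lowest of its group, though above every saline animal, and the difference was 1.48 ± 0.48 (SE, adjusted p = 0.075), or 1.72 with slide as a block (adjusted p = 0.032). Wild type mice gave -4.41 ± 0.80 (SD, n = 4) after saline and -2.87 ± 0.76 (SD, n = 4) after cerulein, so that the level of this probe did not set the transgenic animals apart beyond the spread between animals. The position of the Btc probe in the transcript is not given, so that its signal need not include that of the transgene.

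Egfr stood at 0.32, 0.47 and 0.67 in saline and 2.53, 3.28, 3.85 and 3.44 in cerulein animals, without overlap (2.79 ± 0.40 (SE, adjusted p = 5.2e-04)). Its 2 other probes differed by 0.55 and 0.81 only, so that the probes of this gene disagree on the size. Erbb2 had levels of 0.62, 0.15 and -0.01 and 0.61, 0.68, -0.06 and 0.11, which overlap (0.08 ± 0.31 (SE, adjusted p = 0.9)). Erbb3 did not overlap between the groups, with levels of -3.90, -3.56 and -3.60 and -2.59, -2.83, -2.44 and -3.16, but was not called (0.93 ± 0.36 (SE, adjusted p = 0.14), and 1.06 with slide as a block (adjusted p = 0.052)). Erbb4, the receptor in the series title, was left out of the tests because its probe exceeded background on 1 array of 15, as were the ligands Areg (1 array) and Ereg (2 arrays).

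Some phosphatases that switch off ERK and the related kinases rose. Of 15 ERK phosphatases and Sprouty genes 5 were raised and 1 lowered (none lowered without cerulein animal 14 or saline animal 3 or 4). Dusp8, which acts mainly on the stress kinases, had levels of -1.92, -1.77 and -1.74 in saline and 3.21, 3.50, 4.17 and 3.07 in cerulein animals (5.30 ± 0.45 (SE, adjusted p = 6.1e-06), other probe 2.97). Dusp14 rose by 4.40 ± 0.45 (above background in 1 of 3 saline animals), Dusp5, a nuclear ERK phosphatase, by 2.19 ± 0.42, Dusp1 by 1.82 ± 0.24 and Dusp16 by 1.75 ± 0.31. The highest adjusted p among these 4 was 0.0043.

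Many genes of the cytoskeleton and of cell junctions rose. Serum response factor (SRF) and the cofactors of YAP read the state of actin and of cell contact, and keratins 8 and 18 are the intermediate filaments of acinar cells. Of 18 SRF and actin genes 8 were raised (5 without saline animal 3), of 15 YAP targets and pathway genes 5, of 7 keratins 2, of 14 junction genes 7 (4 without saline animal 4), with none lowered save 1 junction gene. Srf went from 1.23, 1.35 and 1.61 to 4.06, 4.24, 5.06 and 3.87 (2.91 ± 0.34 (SE, adjusted p = 1.1e-04), other probe 3.66). Actg1, the cytoplasmic gamma actin, had levels of 7.53, 7.41 and 7.26 and 10.03, 10.36, 10.44 and 9.73 (2.74 ± 0.28 (SE, adjusted p = 3.6e-05)), and its 4 other probes differed by 2.70 to 4.61. Neither gene overlapped between the groups.

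Tpm4, a tropomyosin, rose by 3.44 ± 0.37 (SE, adjusted p = 6.4e-05), Zyx (zyxin, of focal adhesions) by 2.93 ± 0.34 (SE, adjusted p = 9.3e-05) and Vcl (vinculin, which links actin to adhesions) by 2.63 ± 0.34 (SE, adjusted p = 2.2e-04). Among the YAP targets Ccn1, a matricellular protein, went from -2.14, -2.46 and -2.03 to 3.33, 1.17, 2.20 and 0.92, with animal 13 highest (4.12 ± 0.46 (SE, adjusted p = 8.6e-05)), while Ccn2 rose by 1.10 ± 0.21 (adjusted p = 0.0039). Ankrd1, a nuclear ankyrin repeat protein, had levels of -3.71, -3.24 and -3.04 and -1.88, 0.49, 0.66 and -0.16, with animal 13 lowest of the cerulein group (3.11 ± 0.65 (SE, adjusted p = 0.0077)). Thus the order of the cerulein animals differed between these 2 targets. Amotl1, a partner of YAP at junctions, rose by 2.57 ± 0.23 (SE, adjusted p = 8.5e-06).

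Promoters of 3 genes of this group are shown since Srf, Actg1 and Vcl rose together and each holds a CArG box, the site that SRF binds. Sequences are the 250 bases before the start from RefSeq (GRCm38.p6), 5′ to 3′ on the strand of the gene, with the CArG box in capitals.
Srf, chr17:46556163-46556412 (- strand): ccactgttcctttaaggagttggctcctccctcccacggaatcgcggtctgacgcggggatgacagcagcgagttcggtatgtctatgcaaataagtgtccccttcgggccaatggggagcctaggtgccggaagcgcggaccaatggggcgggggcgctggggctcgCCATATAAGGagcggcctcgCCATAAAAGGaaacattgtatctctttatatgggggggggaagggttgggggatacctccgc
Actg1, chr11:120348496-120348745 (- strand): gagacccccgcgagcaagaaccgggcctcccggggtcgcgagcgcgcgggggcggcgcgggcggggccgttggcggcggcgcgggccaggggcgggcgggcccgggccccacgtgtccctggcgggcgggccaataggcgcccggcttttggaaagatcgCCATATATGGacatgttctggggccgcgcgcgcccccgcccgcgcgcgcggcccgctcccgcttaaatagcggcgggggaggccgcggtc
Vcl, chr14:20929148-20929397 (+ strand): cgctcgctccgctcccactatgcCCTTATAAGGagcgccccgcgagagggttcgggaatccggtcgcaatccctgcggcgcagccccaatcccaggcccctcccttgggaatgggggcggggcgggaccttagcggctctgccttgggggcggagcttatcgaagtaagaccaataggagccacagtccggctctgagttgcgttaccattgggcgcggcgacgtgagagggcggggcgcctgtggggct
The boxes begin 82 and 62 bases before the start in Srf, 90 in Actg1 and 227 in Vcl. Of the other listed genes with a CArG box, some were raised and some were not called. A CArG box was found in 1.49% of all promoter windows, in 2.75% of those of raised genes, 5.08% of those raised at least 4-fold and 1.07% of those of lowered genes, and in 6 of 21 windows of the SRF and actin list (28.6%). The AP-1 site (TGACTCA, both strands) was found in 4.30% of all windows, 5.62% for raised and 3.20% for lowered genes. The cyclic AMP response element (TGACGTCA) was found in 2.49%, 4.42% and 2.31%, and the heat shock element, 3 inverted GAA units, in 0.509%, 0.239% and 0.178%.

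Krt8 had levels of 2.71, 3.1 and 3.49 in saline and 6.66, 7.37, 8.06 and 7.38 in cerulein animals (4.26 ± 0.39 (SE, adjusted p = 1.1e-05)), and its partner Krt18 rose by 1.71 ± 0.34 (SE, adjusted p = 0.006). Krt19, a keratin of duct cells, overlapped between the groups at 1.53, 1.10 and 1.08 and 1.39, 2.58, 2.54 and 1.59 (0.79 ± 0.42 (SE, adjusted p = 0.31), and 1.16 with slide as a block (adjusted p = 0.027)). The tight junction genes Ocln and Tjp1 rose by 2.26 ± 0.31 and 1.71 ± 0.31 and Cdh1, E-cadherin, by 2.19 ± 0.35, the highest adjusted p being 0.0029. In the saline animals Cdh1 stood at 1.25, 1.30 and 1.17 and in the cerulein animals at 2.67, 3.68, 3.95 and 3.42, with animal 13 lowest. Itgb6, an epithelial integrin subunit, rose by 2.44 ± 0.44 (SE, adjusted p = 0.0032), but by 0.76 (adjusted p = 0.083) with normexp background correction. Plaur, the urokinase receptor, rose by 1.82 ± 0.33 (SE, adjusted p = 0.0034). Adamts9, a matrix protease, fell from -0.46, -0.08 and 0.06 to -1.76, -1.83, -1.62 and -2.09 (-1.66 ± 0.25 (SE, adjusted p = 7.2e-04)).

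**Figure D4:**
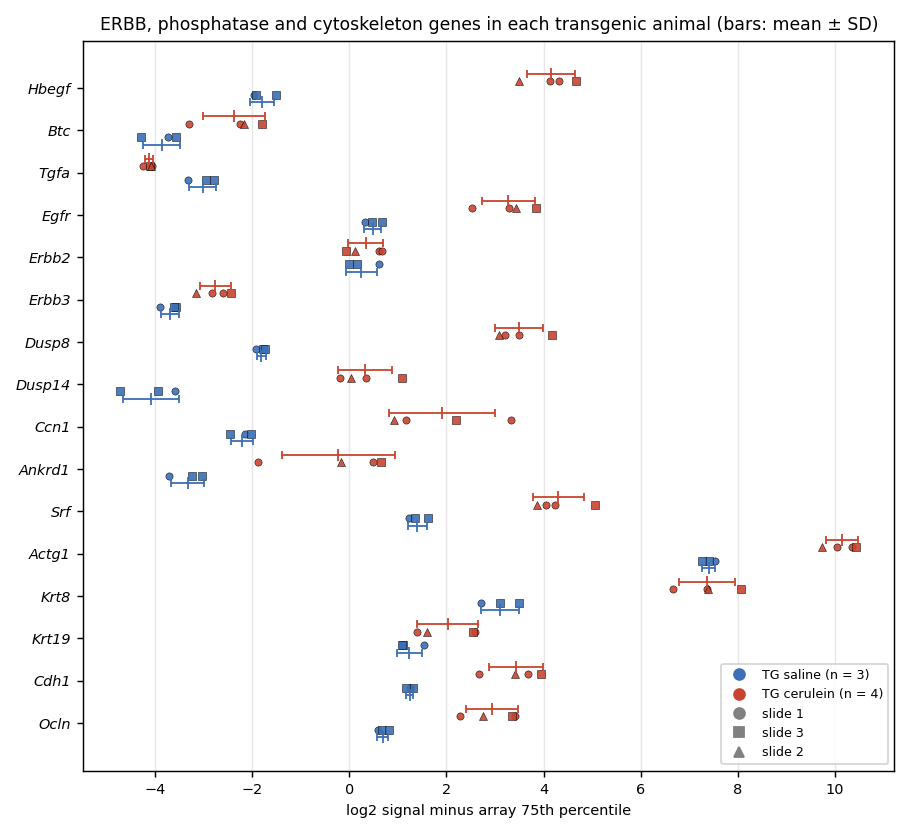
Level (log2 signal minus the 75th percentile of the array) of 16 genes of the ERBB system, of ERK phosphatases and of the cytoskeleton in each transgenic animal, saline in blue (n = 3) and cerulein in red (n = 4), with the mean and SD as bars and the slide as marker shape. Hbegf, Egfr, Dusp8, Srf, Actg1 and Krt8 do not overlap between the groups, and Erbb2 and Krt19 do.

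No gene of the secretory programme of acinar cells passed the test, while acinar transcription factors moved in both directions. None of 24 digestive enzymes and secretory products was called by limma. All 24 were lower (median -0.69), 12 of them at an unadjusted p below 0.05. A slide block gave a median of -0.32 with 5 lowered, array weights 23 lowered, and quantile normalization a median of 0.016, the other sign, with 1 lowered. Prss1 (trypsinogen) had levels of 10.43, 11.15 and 11.21 in saline and 10.32, 10.37, 10.71 and 9.59 in cerulein animals, where saline animal 2 lay among the cerulein animals (-0.68 ± 0.34 (SE, adjusted p = 0.26), and -0.30 with slide as a block (adjusted p = 0.11)). Amy2a5 (amylase) and Cpa1 (carboxypeptidase A1), chosen after their values were seen, differed by -0.89 ± 0.35 and -0.88 ± 0.35 (adjusted p = 0.15 and 0.16), against -0.48 with slide as a block (adjusted p = 0.015) and -0.46 with slide as a block (adjusted p = 0.017).

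Of 11 acinar transcription factors 2 were raised (1 without saline animal 2) and 2 lowered (4 without cerulein animal 13). Ptf1a, the factor that founds and keeps acinar identity, rose from 2.95, 3.62 and 4.13 to 4.67, 5.99, 5.20 and 5.12 (1.68 ± 0.35 (SE, adjusted p = 0.0077)). Rbpjl, its partner in the complex that drives enzyme genes, fell from 4.19, 4.84 and 5.05 to 2.57, 3.03, 3.36 and 2.90 (-1.73 ± 0.30 (SE, adjusted p = 0.0024)). Both pairs of groups were separate, so that these partners moved in opposite directions in the same animals. Foxa2, a forkhead factor of foregut organs, fell from 2.60, 3.20 and 3.26 to 0.36, 0.59, 1.03 and 0.56 (-2.38 ± 0.32 (SE, adjusted p = 3.5e-04), other probe -2.52), and Foxa3 rose by 1.58 ± 0.37 (SE, adjusted p = 0.017), a call lost without saline animal 2 (adjusted p = 0.083).

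Bhlha15 (MIST1), which organises the secretory cell, overlapped between the groups at 5.07, 5.58 and 5.80 and 4.40, 5.15, 5.82 and 4.85 (-0.43 ± 0.42 (SE, adjusted p = 0.6)). Of 13 duct factors and markers 1 was raised and 2 lowered, but none raised without cerulein animal 13, 14 or 15 or saline animal 2 or 3, and 1 lowered without cerulein animal 13, 14 or 16 or saline animal 3 or 4. Sox9, a duct and progenitor factor, differed by -1.27 ± 0.35 (SE, adjusted p = 0.036), a call lost without saline animal 3 or 4 or any of cerulein animals 13, 14 and 16 (adjusted p up to 0.173). Onecut1 (HNF6) was not above background after cerulein and was at least 2.26-fold lower there, with levels of -3.88, -3.59 and -3.52 and -6.54, -5.06, -6.41 and -7.09 (adjusted p = 0.0086).

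Several chemokine genes rose, and among the markers of white blood cells 1 of neutrophils and 1 of macrophages were called. Of 13 chemokines 5 were raised and none lowered, with 8 of the 13 differences above 0 and a median of 0.53 (-0.19 with normexp correction). With probes above background on all arrays alone, which leaves out Ccl7 and Cxcl1, 2 were raised. Raised as well were 2 of 9 cytokines and receptors (1 without cerulein animal 14 or saline animal 3 or 4). Ccl2 and Ccl7 attract monocytes and Cxcl1 attracts neutrophils. Ccl2 had levels of -2.25, -2.60 and -2.28 in saline and 0.14, 1.12, 0.03 and 0.62 in cerulein animals (2.85 ± 0.33 (SE, adjusted p = 1.0e-04)). Ccl7 was not above background in saline, at -4.94, -5.90 and -4.66, and stood at -1.01, 0.54, -0.54 and -0.27 after cerulein, at least 15.9-fold higher (adjusted p = 9.9e-06). Cxcl1 was at least 7.04-fold higher, with levels of -6.21, -6.12 and -6.38 (not above background) and -1.51, -1.12, -1.47 and -1.90 (adjusted p = 4.1e-07), and Cxcl16 rose by 1.54 ± 0.31 (SE, adjusted p = 0.006). In these 4 genes all cerulein animals were above all saline animals.

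Of 10 measured neutrophil markers 1 was raised (10%, none without saline animal 3 or 4) and of 11 macrophage markers 1 (9.09%), against 4.78% of all genes tested. The macrophage marker was Cd14, the co-receptor for bacterial lipopolysaccharide (1.24 ± 0.20 (SE, adjusted p = 0.0014)). Mean levels over the neutrophil markers were -1.2 to -0.3 in the saline and -1.0 to -0.1 in the cerulein animals, and over the macrophage markers 0.8 to 0.9 and 0.8 to 1.0. None of 11 lymphocyte markers was called by limma (2 lower at an unadjusted p below 0.05, median -0.71, lowest adjusted p 0.0527). No marker of fibroblasts (9), endothelium (9), islet cells (15), erythrocytes (5) or mesothelium (4) was called by limma either, and of these lists 0, 1, 1, 0 and 1 genes had an unadjusted p below 0.05. With 4.78% of all genes raised and 3.41% lowered, lists this short may hold no call. Their lack of calls therefore does not set them apart from all genes. Leaving out 1 animal let at most 1 gene of such a list pass, for lymphocytes without cerulein animal 13 or 16, fibroblasts without 13, and islet cells and mesothelium without 15. With array weights 9 of the 15 islet cell markers were lowered and 1 raised, 4 and 2 of the lymphocyte, 2 and 1 of the endothelial and 1 and 0 of the mesothelial markers. Neutrophil markers Mmp8 and Ngp were above background on 0 and 2 of 15 arrays.

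Of 13 NF-kB subunits and targets 3 were raised, but 1 without saline animal 3 or 4. Rela, the transactivating subunit, kept its call in each of these and went from 3.96, 4.07 and 4.13 to 5.80, 6.19, 6.67 and 6.09 (2.13 ± 0.28 (SE, adjusted p = 2.5e-04)). Of 13 STAT3 and SOCS genes 4 were raised (2 without cerulein animal 14 or 15 or saline animal 2 or 3). The cytokine receptor chains Il6st (gp130) and Osmr kept their calls and rose by 1.47 ± 0.30 and 1.36 ± 0.26 (adjusted p = 0.0066 and 0.0045). Of 20 Reg family and acute phase genes 1 was raised (none without cerulein animal 14 or saline animal 3 or 4) and 1 lowered, with 10 of the 20 differences above 0. The lowered gene was Reg3g, a secreted lectin that is usually induced in pancreatitis, with levels of 5.18, 4.85 and 6.15 and 3.95, 2.34, 2.69 and 0.79. Its difference of -2.95 ± 0.79 (SE, adjusted p = 0.031) was not called without any of the saline animals or without cerulein animal 14 or 16 (adjusted p up to 0.151). Wild type mice had 2.65 ± 1.55 (SD, n = 4) after saline and 1.78 ± 0.75 (SD, n = 4) after cerulein, not called there (limma, adjusted p = 0.42).

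Genes of growth control, metabolism and ribosome assembly completed the response. Of 15 p53 targets 5 were raised and 1, Plk2, lowered. Cdkn1a, the cell cycle inhibitor p21, had levels of 0.75, 0.71 and 1.24 and 4.40, 4.45, 4.84 and 3.66 (3.44 ± 0.32 (SE, adjusted p = 1.4e-05)), while its other probe differed by 0.58. Trp53inp1, a p53-induced nuclear protein abundant in pancreatitis, rose from 2.07, 2.15 and 2.46 to 6.71, 5.76, 5.85 and 4.83, highest in animal 13 (3.56 ± 0.44 (SE, adjusted p = 1.6e-04)). Bbc3 (PUMA), a promoter of apoptosis, rose by 2.42 ± 0.30 (SE, adjusted p = 1.5e-04). None of 11 members of the Bcl2 family list was called by limma (2 higher and 1 lower at an unadjusted p below 0.05), nor any of 15 cell cycle genes (1 lower, which was called without cerulein animal 15 or saline animal 2). Lists of this size may hold no call at the shares over all genes, 4.78% raised and 3.41% lowered.

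Of 16 TGF-beta and BMP genes 4 were raised and 2 lowered (1 without cerulein animal 16 or saline animal 3 or 4). Tgif1 and Skil, both repressors of SMAD transcription, rose by 2.81 ± 0.21 (SE, adjusted p = 2.5e-06) and 1.57 ± 0.33 (SE, adjusted p = 0.0079) (another probe of Skil gave 3.03). Among 15 antioxidant genes Srxn1, which repairs oxidised peroxiredoxin, rose from 0.97, 0.52 and 0.47 to 2.76, 4.13, 4.23 and 3.59 (3.03 ± 0.39 (SE, adjusted p = 2.6e-04)). Vegfa, the endothelial growth factor, and Slc2a1, the glucose carrier GLUT1, rose by 1.80 ± 0.36 and 1.97 ± 0.33 (adjusted p = 0.0055 and 0.0018).

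Of 19 sterol synthesis genes 5 were raised (3 without saline animal 3, 2 without saline animal 4, and 10 with slide as a block). Srebf2, the factor that drives the pathway, rose by 1.44 ± 0.27 (SE, adjusted p = 0.004), though its other probe differed by 0.40. Of 22 ribosome biogenesis genes 5 were raised and none lowered, and 11 with slide as a block. Nop58, of the box C/D particles, rose by 2.0 ± 0.37 (SE, adjusted p = 0.0036) and Rrp12 by 1.47 ± 0.24 (SE, adjusted p = 0.0014). Of 19 clock genes 4 were raised (2 without cerulein animal 14 or saline animal 2 or 3) and 1 lowered (none without any 1 animal other than cerulein animal 13). Nfil3, a bZIP repressor, rose by 4.69 ± 0.37 (SE, adjusted p = 4.1e-06) and Bhlhe40, a repressor of CLOCK targets, by 1.63 ± 0.22 (SE, adjusted p = 2.9e-04). Ppargc1b, a coactivator of mitochondrial genes, fell from -2.37, -2.01 and -2.10 to -3.47, -5.48, -5.36 and -5.48, above background in 1 of 4 cerulein animals and with animal 13 nearest to saline (-2.79 ± 0.60 (SE, adjusted p = 0.0094)).

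Levels of the called genes differed among the 4 cerulein animals. Animals 15 and 16 were the only cerulein animals of this genotype on their slides, where animal and slide cannot be told apart. Animal 15, on slide 3, showed the highest levels of raised genes, with a median of 2.06 above the saline mean over the 829 raised genes, against 1.28 in animal 13, 1.61 in animal 14 and 1.34 in animal 16. Over the 592 lowered genes it lay nearest to saline, at -0.94, against -1.12, -1.38 and -1.54. Animal 15 thus had the highest median of the 4 in both sets. Saline animal 2 had the lowest of its group in both, at -0.15 and -0.23, against 0.05 and 0.11 in animal 3 and 0.10 and 0.11 in animal 4. Whether response or a shift of whole arrays set these orders was not tested. These medians describe genes chosen on the same arrays. Genes called in wild type mice give the same order for the raised genes, with medians above the wild type saline mean of 1.32, 1.56, 2.0 and 1.36 in animals 13 to 16 over the 977 genes raised there and of 0.02, 0.12 and 0.16 in the 3 saline animals. Of those 977 genes 701 were raised in transgenic mice as well, so that the shared order is no separate check. Animal 13 had the lowest level of the 4 in 410 of the 829 raised genes (49.5%) and animal 16 in 343 (41.4%). In lowered genes animal 15 had the highest level in 328 of 592 (55.4%) and animal 13 in 189 (31.9%). Correlations between the 7 arrays across genes, whose values are not independent, ran from 0.923 to 0.988, with 0.988 for saline animals 3 and 4 and 0.971 for cerulein animals 13 and 14, both pairs on 1 slide.

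Wild type mice gave the reference for what is particular to the transgenic response. There 977 genes were raised (5.64%) and 1448 lowered (8.35%). Of the genes raised in transgenic mice 701 were raised in wild type mice as well (84.6% of the transgenic and 71.8% of the wild type list), and 509 were lowered in both (86.0% and 35.2%). No gene was called in opposite directions, and 828 of the 829 and 591 of the 592 had the same sign in wild type mice. The difference between the responses was tested in 1 contrast over all 15 arrays. By limma 0 genes (0.0%) differed between the genotypes in either direction (134 at an unadjusted p below 0.05, lowest adjusted p 0.9999), and 1 gene (0.00577%) with slide as a fixed block (0 with slide as a random block), Alox12e, a lipoxygenase gene chosen after its values were seen. Its levels were -0.24, -0.31 and -0.27 after saline and -1.34, -1.37, -1.60 and -0.57 after cerulein, a difference of -0.95 ± 0.29 (SE, adjusted p = 0.055) against 0.39 in wild type mice. The responses differed by -1.34 ± 0.39 (adjusted p = 0.9999), and by -1.12 (adjusted p = 0.037) with slide as a block. Over all genes, the 134 at an unadjusted p below 0.05 are a smaller share than the 0.05 that tests without any difference would give. With slide as a block 414 genes had such a p by limma. The lack of calls therefore does not show that the genotypes respond alike.

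The median standard error over genes was 0.43 for that difference, against 0.32 for the transgenic response alone. Atf3 differed between the responses by -0.14 ± 0.43, Rcan1 by 0.37 ± 0.58, Hbegf by 0.35 ± 0.44 and Btc by -0.06 ± 0.66 (SE), transgenic minus wild type. Among the raised genes 21 and among the lowered genes 17 had a difference between the responses of over 1 on the log2 scale, none called. Fgf21 rose by 3.62 in transgenic mice and differed by 1.74 in wild type mice, a difference of 1.88 ± 1.00. Slc7a11 gave 4.12 and 2.56, a difference of 1.57 ± 0.94, and Egr1, in the other direction, 2.44 and 4.12, a difference of -1.67 ± 0.90. ER chaperones had 1 raised and 11 lowered of 26 in wild type mice, with a median of -0.99, against 1 and 1 with -0.47 in transgenic mice, and no member's difference was called. These values are without slide as a block, with which the transgenic median was -0.13. Wild type cerulein animals 11 and 12 lay on slide 2, which held no saline animal, and wild type saline animals 6, 7 and 8 lay on slide 3. The part of slide in these medians was not tested.

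The lowest unadjusted p-values for a smaller rise or larger fall in transgenic mice belonged to Otud7a, Fam227a and Samd11. Otud7a, a deubiquitinase, had levels of -2.16, -2.11 and -2.71 and -4.12, -5.59, -5.30 and -6.01 and fell by 2.93 ± 0.36 (SE, adjusted p = 1.7e-04), above background in 3 of 3 saline and 1 of 4 cerulein animals and in no wild type animal, where the fitted difference of -0.69 is between signals not above background. The responses differed by -2.23 ± 0.50 (limma adjusted p = 0.9999). For Fam227a and Samd11 the difference was -1.59 ± 0.42 and -2.27 ± 0.62. Their probes were above background in 1 of 3 saline and 1 of 4 cerulein transgenic animals. In wild type mice they were above it in no saline animal but in 4 of 4 and 3 of 4 cerulein animals. Samd11 was raised there (1.55, limma adjusted p = 0.025). In the other direction Cux2 (2.82 ± 0.76), Ear2 (1.40 ± 0.38) and Angpt1, a vessel-stabilising ligand (1.44 ± 0.43), had the lowest p-values. The Cux2 probe was above background in 1 of 3 saline and 4 of 4 cerulein transgenic animals. In wild type mice it was above it in 3 of 4 saline and no cerulein animals. Cux2 and Ear2 were lowered in wild type mice (-2.12 and -1.78, limma adjusted p = 0.014 and 4.7e-04). The response of Angpt1 was -2.38 in wild type mice and -0.94 ± 0.31 (SE, adjusted p = 0.085) in transgenic mice.

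**Figure D5:**
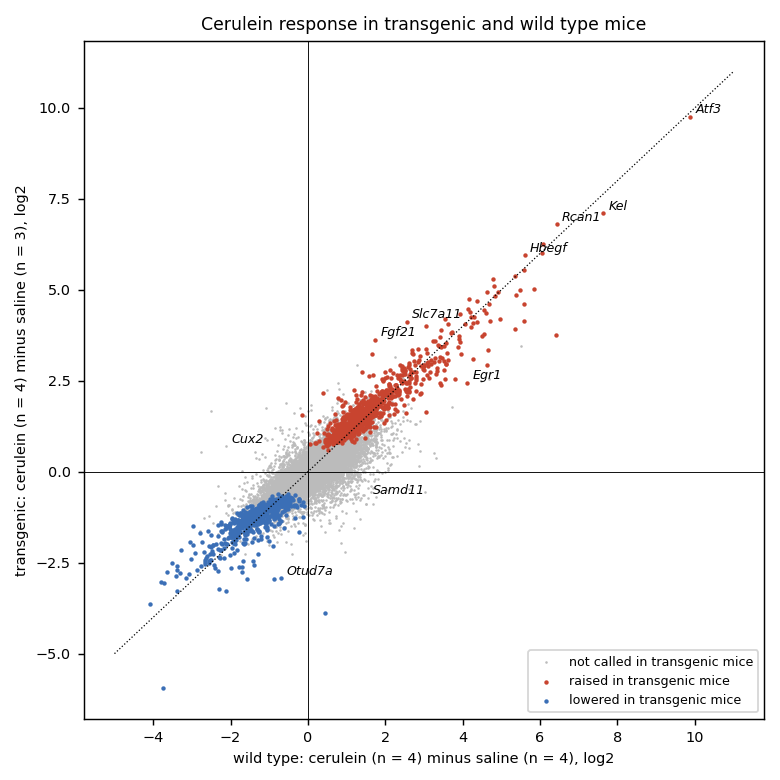
Difference after cerulein (log2) of each of 17338 genes in wild type mice (x axis, n = 4 against 4) and in transgenic mice (y axis, n = 4 against 3), with the 829 genes raised and 592 lowered in transgenic mice in red and blue. The dotted line marks equal responses; the called genes run along it from Atf3 (9.89 and 9.75) downward, and Otud7a (-0.69 and -2.93) lies off it, with its probe above background in no wild type animal and its difference not called.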

How the data were processed

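Whole pancreas RNA was labelled with Cy3 and hybridised to 1-colour Agilent arrays, 1 array per animal. Per the file headers, the authors deposited scanner output of Agilent Feature Extraction 10.7.3.1 with spot intensities, already background-subtracted, and 0 or 1 flags. The value matrix that the authors deposited for the series holds log2 values, normalized by a method that no source here names. It served as an alternative only, and its columns correlated with the scanner values at 0.987 to 0.998.

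Levels are log2 intensity minus the 75th percentile of the array. Control and outlier spots were left out, spots of a probe averaged, and probes kept if well above background on at least 3 arrays. The brightest kept probe stood for a gene (17338 genes). A bound on a fold ("at least") sets the bright group against the lowest signal well above background on each dim array. Linear models were fitted with limma 3.58.1 in R 4.3.3, with the data.table package (1.17.8), to 4 group means over all 15 arrays (11 residual degrees of freedom), and tested on simulated data. Adjusted p-values are limma's with Benjamini-Hochberg adjustment. Slides were read from the deposited file names.

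Members and gene lists were chosen with earlier results of these data known. Named genes are the 15 largest rises and falls whose groups did not overlap and that kept the call with slide as a block, up to 4 called members of each list (all where 6 or fewer were called), 13 genes of interest, and the 3 genes of each sign with the lowest p for the difference between genotypes; others are marked as chosen after their values were seen. Some genes that this rule names are not reported here. Labels give each animal a number of its own, and nothing else about cages or litters. The normexp alternative used median in place of mean spot signals. Promoters come from RefSeq (GRCm38.p6). The number of arrays limits the precision. Figures were drawn with matplotlib 3.10.9.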

Additional observations from a re-analysis of the deposited data

Results flagged for a closer look

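In groups of 4 animals a single animal can stand far from the other 3, and by Dixon's criterion chance alone marks about 1 in 20 groups. Over all genes tested 1121 (6.47%) had 1 cerulein animal apart in this way, against 30 of the 829 raised genes (3.62%) and 30 of the 592 lowered genes (5.07%). Among the genes named, cerulein animal 15 stood above the other 3 in Cebpb (5.76), Gadd45a (3.64), Rcan3 (1.03) and Tnfrsf12a (6.11). Cerulein animal 13 stood apart on the side of the saline animals in Slc7a11 (-1.24), Sostdc1 (0.87), Ppargc1b (-3.47) and Rnase2b (-0.38). Among the list medians relative to the saline mean, the Kruppel-like factors were highest in animal 15 (1.40) and the matrix proteases and inhibitors lowest in animal 13 (-0.043). One gene differed between the responses of transgenic and wild type mice by a test of the difference itself, Alox12e, at -1.12 with slide as a fixed block. It was not called without the block (adjusted p = 0.9999), and no gene was with slide as a random block.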

How the results depend on the processing

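Of the 829 raised and 592 lowered genes 829 and 587 kept the call with slide as a block, 793 and 526 with quantile normalization, 676 and 557 with normexp correction, 607 and 308 with the 7 transgenic arrays alone and 794 and 456 without slide 2. The text names 122 genes, and no alternative reversed the direction of a call. With slide as a fixed or a random block, quantile normalization, no filter on dim probes, the series table, the mean of all probes or array weights all called genes among them kept the call, which for slide as a block was a condition for naming some of them. Of the called genes 2 lost it with the 7 transgenic arrays alone or without slide 2, 1 with normexp correction, and at most 7 when 1 transgenic animal was left out. Of the 90 called genes with probes above background on all arrays, 90 kept it. Counts moved more. Raised and lowered genes numbered 2637 and 1447 with slide as a block, 2419 and 1397 with slide as a random block, 1244 and 954 with quantile normalization and 3166 and 4548 with array weights. With the 7 arrays alone 337 genes were lowered, and with normexp correction 952. Leaving out 1 animal gave 509 to 851 raised and 186 to 703 lowered genes. Raised genes made up 58.3% of the calls, but 50.1% with normexp correction, 47.5% without cerulein animal 15 and 41% with array weights. The median over all genes was -0.06, and -0.20 with normexp correction. With a smaller rise or larger fall in transgenic mice 1 gene was called with slide as a fixed block and 0 with slide as a random block or in any other setting. The cause of these shifts was not tested. No paired analysis was possible because the groups share no replicate numbers. Signal over background limits Slc7a11, Tac1, Tdrd5 and Dusp14, each above it in 1 of 3 saline animals.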
